A study of Mus musculus with 6 samples.

Results

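Interferon-stimulated genes are the genes that a cell turns on when interferon reaches its receptors, and 41 of them were followed here in activated mouse T cells. The members were a list of gene symbols, and each was found as 1 row among the 52550 genes of the count table through its Ensembl identifier. They fall into 30 antiviral genes, 3 interferon regulatory factors (IRFs) and 8 interferon-gamma-induced GTPases, and the antiviral genes were set beside the GTPases.

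T cells bearing CD3 were isolated from the spleens of wild-type mice and cultured for 24 h with antibodies against CD3 and CD28, which engage the T cell receptor (TCR) and its costimulator. The group TCR alone held 3 samples with no compound added (0 ng/ml). The group TCR+DMGV held 3 samples whose labels say that DMGV was added. The dose recorded for them was 100 ng/ml, which is the dose that the study's legend gives for LNY1, described below. DMGV, dimethylguanidino valeric acid, is a breakdown product of the dimethylarginines. The sample labels name DMGV, whereas the study's legend to this experiment names LNY1, a factor purified from medium conditioned by fibroblasts, and the groups carry here the names of the labels. The experiment asked how the compound changes gene expression in T cells that have been activated but have not yet divided. All 6 samples were used. The study's legend calls them independent biological samples. The strain, sex and age of the mice behind these 6 samples are not given in the labels. The study's methods give an age range for its mice, of both sexes, and list several strains, without naming those of these samples. The counts summed to between 37758725 and 43718867 per sample.

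Interferons act through paired receptors and JAK kinases. Type I interferons activate a complex of transcription factors that contains IRF9 and binds the interferon-stimulated response element (ISRE) and turns on antiviral genes such as the IFIT, OAS and MX families. Interferon-gamma, which activated T cells themselves secrete, acts through the gamma-activated site (GAS) and turns on IRF1 and large GTPases that attack the vacuoles of intracellular pathogens. Many genes answer to both kinds of interferon.

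The promoter sequences of members that the 2 classes turn on are shown first, because ISRE and GAS are the DNA words by which many such genes are recognised. The windows are RefSeq's for GRCm38.p6, 250 bases before to 50 bases after each start, and 28 of the 41 members had 1. The ISRE core was searched as GAAA, any 2 bases, GAAA on both strands, and GAS as TTCNNNGAA, which reads alike on both strands. Overlapping matches were counted singly. Each stretch below lies upstream of the RefSeq start, runs 5′ to 3′ on the gene's strand, and has the matches in capitals.

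The first 2 are antiviral genes and Irf1 is the interferon regulatory factor with a GAS. The other 6 are the GTPases that had a window.
Ifit1, chr19:34640773-34640825, forward strand: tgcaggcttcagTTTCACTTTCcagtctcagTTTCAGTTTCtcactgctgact
Isg15, chr4:156200863-156200908, reverse strand: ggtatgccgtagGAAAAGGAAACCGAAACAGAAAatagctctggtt
Irf1, chr11:53769912-53769944, forward strand: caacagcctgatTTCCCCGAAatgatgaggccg
Gbp2, chr3:142620592-142620625, forward strand: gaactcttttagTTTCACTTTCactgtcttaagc
Gbp3, chr3:142559987-142560026, forward strand: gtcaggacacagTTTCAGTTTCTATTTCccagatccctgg
Gbp5, chr3:142496684-142496902, forward strand: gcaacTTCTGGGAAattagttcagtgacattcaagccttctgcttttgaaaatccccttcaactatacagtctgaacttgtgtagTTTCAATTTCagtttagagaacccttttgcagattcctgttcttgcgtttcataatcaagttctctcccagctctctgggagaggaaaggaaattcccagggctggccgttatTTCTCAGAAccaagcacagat
Gbp7, chr3:142530218-142530304, forward strand: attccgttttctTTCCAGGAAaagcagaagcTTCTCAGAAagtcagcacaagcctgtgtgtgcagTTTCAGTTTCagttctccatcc
Igtp, chr11:58199499-58199543, forward strand: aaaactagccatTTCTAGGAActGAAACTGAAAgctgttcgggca
Irgm1, chr11:48871423-48871462, reverse strand: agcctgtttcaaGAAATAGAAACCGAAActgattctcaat

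An ISRE core was found in 16 of the 28 members with a window (57.1%), against 3.99% of all 27025 genes that have one. GAS was found in 9 members (32.1%), against 9.55% of all genes. At least 1 of the 2 words was found in 20 of the 28 members with a window, and the others held neither. Both classes held both words. Of the antiviral genes with a window, 10 of 19 held an ISRE core and 5 held GAS. Of the GTPases with a window, all 6 held an ISRE core and 3 (Gbp5, Gbp7 and Igtp) held GAS. The GTPases Gbp4 and Iigp1 had no window and were not searched. Ifit1 had ISRE cores that began 104 and 85 bases upstream of its start, and Isg15 had 3 overlapping ones that began 78, 72 and 66 bases upstream. In Igtp a GAS began 45 bases and an ISRE core 34 bases upstream. These are matches of letters, and binding was not measured.

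The genes were expressed at very different levels, and 2 GTPases, Gbp2 and Igtp, had the highest. On the FPKM scale, fragments scaled to the length of the gene and to the sample's total, so that genes can be compared, the mean over the 6 samples ran from 294 for Gbp2 to 0.0296 for Rsad2. The median level was 34.0 FPKM for the 8 GTPases, 5.29 FPKM for the 3 IRFs and 1.75 FPKM for the 30 antiviral genes, beside 4.23 FPKM for all 14786 genes tested. Gbp2, a guanylate-binding protein (294 FPKM), and Igtp, an immunity-related GTPase also called Irgm3 (236 FPKM), were the highest of the 41 members. Ly6a followed at 153 FPKM. It encodes the surface protein Sca-1, and in 19.0% of its 50-base words it is identical to other genes, mostly Ly6c1. Bst2, which encodes tetherin, a protein that holds budding virus at the cell surface, had 71.5 FPKM.

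Low levels were found in other antiviral genes. Mx1, a GTPase that blocks incoming virus, had 0.136 FPKM, Oasl2 had 0.183 FPKM and Isg15, a ubiquitin-like protein joined to other proteins, had 3.64 FPKM. Rsad2, which encodes viperin, and Ifi44 did not pass the filter on low counts and were not compared. Rsad2 had 0, 12 and 16 counts in TCR alone against 0, 4 and 4 in TCR+DMGV, and Ifi44 had 8, 4 and 5 counts against 5, 17 and 19. Both sets overlapped between the groups. The other 39 members were tested.

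**Figure D1:**
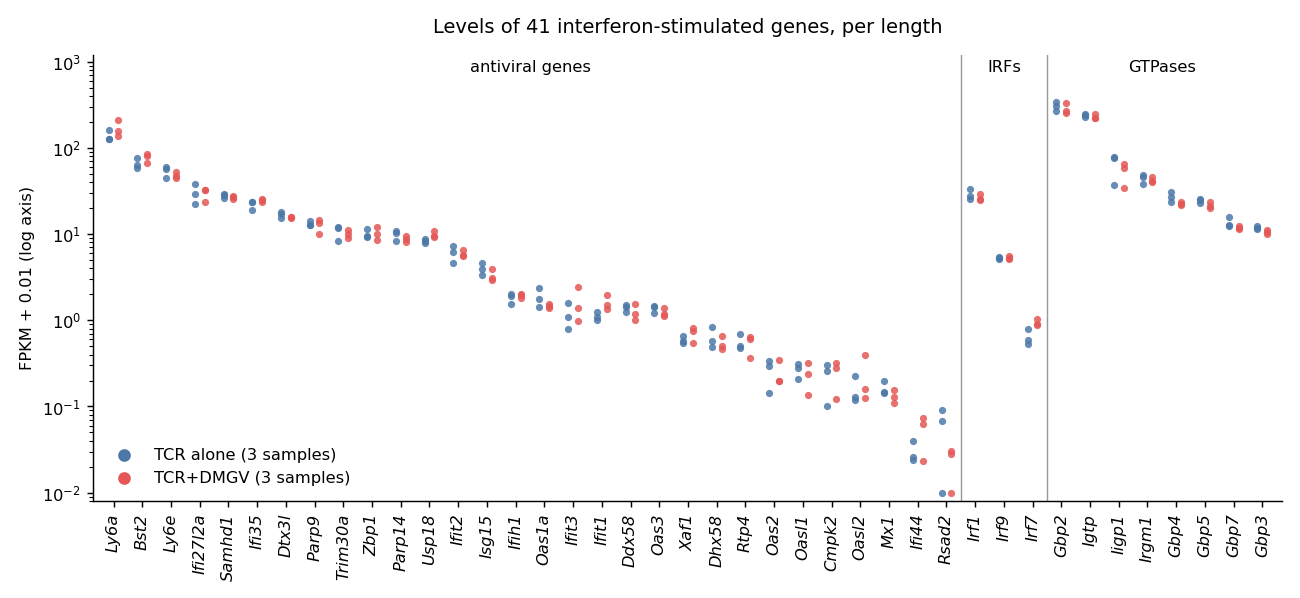
Levels of the 41 members in FPKM, to which 0.01 was added so that 0 can be drawn, on a log axis. Each point is 1 sample, and genes are ordered within each class by their mean. The GTPases have means of 11.2 FPKM or more, whereas the antiviral genes run from 153 FPKM for Ly6a to 0.0296 FPKM for Rsad2.

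Among the ligands, Ifng, the gene of interferon-gamma, had 553, 705 and 510 CPM (counts scaled to a common library total with edgeR's TMM factors) in TCR alone and 580, 669 and 668 CPM in TCR+DMGV. Its mean of 421 FPKM was above that of every member. Of 18 other interferon genes, 16 were listed at 0 counts in all 6 samples. The other 2, Ifna4 and Ifnab, had no more than 5 counts in any sample. A count of 0 allows up to 3 counts, or 0.0674 to 0.0790 CPM in these libraries, by counting error only. Interferon RNA at 24 h says nothing about interferon made earlier or by cells that are not in the sample.

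Between the groups no member passed the threshold of an adjusted p under 0.05 in edgeR's quasi-likelihood test, fitted over all 14786 genes and adjusted by Benjamini-Hochberg (adjusted p = 0.999 for each of the 39). Of all genes tested, 2 passed (0.0135%). The direction differed between the classes in count: all 8 GTPases had a log2 fold change below 0 (TCR+DMGV over TCR alone), against 17 of 28 antiviral genes and 1 of 3 IRFs. Among all genes tested 49.4% were below 0. The sizes were small, with a median of -0.15 for the GTPases, -0.04 for the antiviral genes and 0.03 for the IRFs, beside 0.002 for all genes tested. The median standard error of a single gene was 0.11 among the GTPases and 0.18 among the antiviral genes. The GTPases of a cell answer to the same factors and are not independent of each other, and the difference between the classes was not tested. In bulk samples such as these, fewer cells of a type and less RNA per cell cannot be told apart.

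**Figure D2:**
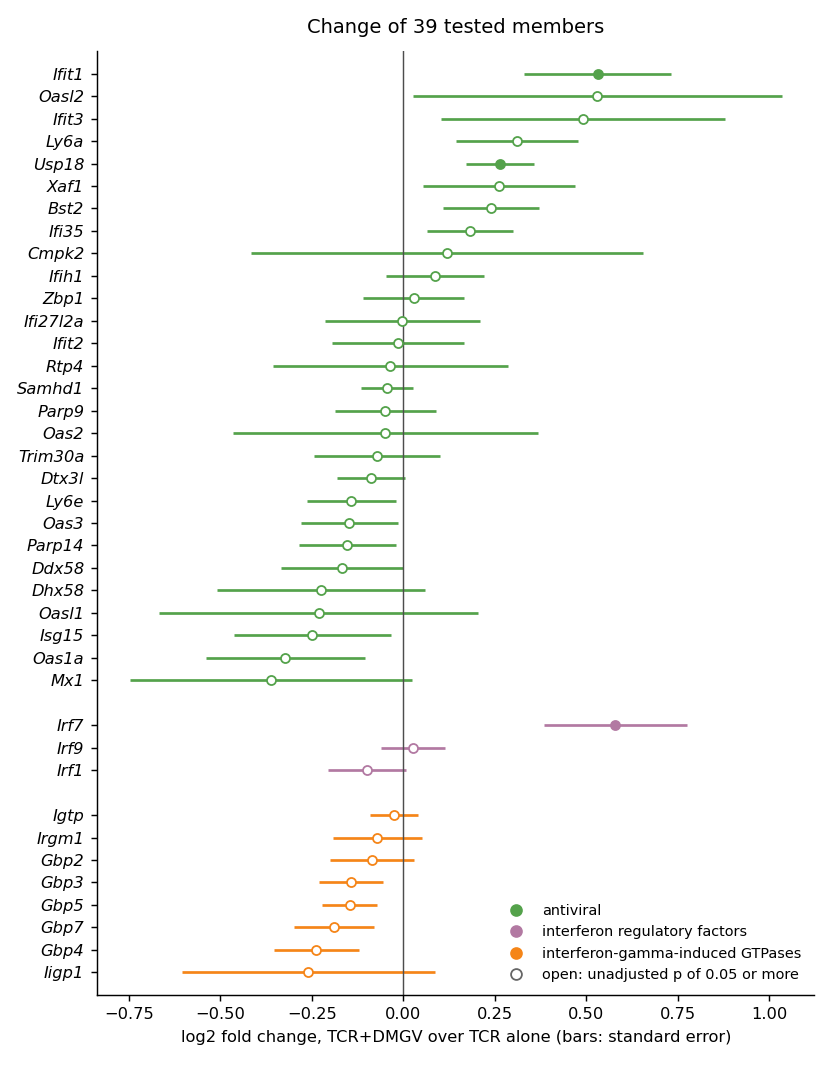
Log2 fold change (TCR+DMGV over TCR alone, 3 samples each) of the 39 tested members with its standard error, grouped by class. Filled points have an unadjusted p under 0.05, which Ifit1, Usp18 and Irf7 had, and all 8 GTPases lie to the left of 0, between -0.26 and -0.02.

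At an unadjusted p under 0.05 there were 3 members, Ifit1, Usp18 and Irf7, and all 3 were higher in TCR+DMGV. The same limit was passed by 3.19% of all genes tested, and by 1.63% in the direction higher. The groups did not overlap for 5 members, these 3 and the GTPases Gbp3 and Gbp5, against 8.86% of all genes tested. With 3 samples against 3, an exact permutation test of 1 gene cannot give a p below 0.1.

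Irf7, the factor that amplifies type I interferon production, had 2.55, 2.35 and 3.29 CPM in TCR alone against 4.34, 3.90 and 4.01 CPM in TCR+DMGV. Every TCR+DMGV sample lay above every TCR alone sample, and the means were 2.73 ± 0.491 and 4.08 ± 0.226 CPM (SD, n = 3 each). The log2 fold change was 0.58 (standard error 0.20; edgeR's unadjusted p = 0.020, adjusted p = 0.999). Its level was low for a gene of this list, 0.779 FPKM, and 5 of its annotated transcripts with counts retain an intron.

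Ifit1, which binds viral RNA that lacks the cap marks of the host, had 2.95, 3.80 and 3.19 CPM in TCR alone against 5.68, 4.06 and 4.62 CPM in TCR+DMGV. The groups did not overlap, but TCR alone replicate 2 and TCR+DMGV replicate 2 lay close together. Its log2 fold change was 0.53 (standard error 0.20; edgeR's unadjusted p = 0.032, adjusted p = 0.999). Without TCR+DMGV replicate 1, the highest sample, it was 0.39 and the unadjusted p was 0.118 in edgeR's fit. The gene lies on chromosome 19 from 34640871 to 34650009 (GRCm38), beside Ifit2 and Ifit3.

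Of the other IFIT genes, Ifit3 had 2.11, 1.57 and 3.04 CPM in TCR alone against 4.72, 1.95 and 2.78 CPM in TCR+DMGV, and the groups overlapped (log2 fold change 0.49, standard error 0.39). TCR+DMGV replicate 1 was the highest sample here too. In 51.2% of its 50-base words Ifit3 is identical to its copy Ifit3b, so its counts are uncertain. Ifit2, at 26.5 ± 6.27 and 26.3 ± 2.54 CPM (SD, n = 3 each) the most abundant of the 3, had a log2 fold change of -0.01 (standard error 0.18).

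Usp18, the protease that removes ISG15 from proteins and restrains signalling at the type I receptor, had 24.5, 26.5 and 26.8 CPM in TCR alone against 32.9, 30.6 and 29.9 CPM in TCR+DMGV. The groups did not overlap, and the 3 values within each lay near each other. Its log2 fold change was 0.26 (standard error 0.09; edgeR's unadjusted p = 0.023, adjusted p = 0.999). Isg15 itself did not pass either, with 3.37 ± 0.598 CPM in TCR alone against 2.83 ± 0.397 CPM in TCR+DMGV (SD, n = 3 each; log2 fold change -0.25, standard error 0.22).

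None of the 5 OAS genes, whose products make the messenger that activates RNase L or are relatives of those enzymes, reached an unadjusted p of 0.05, and 4 of them were below 0. Oas1a had a log2 fold change of -0.32 (standard error 0.22) and shares 57.6% of its 50-base words with Oas1g. Oas3, at 10.8 ± 0.878 and 9.75 ± 0.855 CPM (SD, n = 3 each), had -0.15 (standard error 0.13). Oasl2, at 0.53, was the only one above 0. It had 2.81 CPM in TCR+DMGV replicate 1 and 0.846 to 1.55 CPM in the other 5 samples, and without that replicate the value was -0.16.

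Among the other antiviral genes Ly6a had the largest positive value, and it rested on 1 sample. It had 169, 175 and 212 CPM in TCR alone against 208, 289 and 193 CPM in TCR+DMGV. TCR+DMGV replicate 2 stood above the rest, and the log2 fold change was 0.31 (standard error 0.17; edgeR's unadjusted p = 0.104). Without that sample it was 0.11. Its neighbour in family and on chromosome 15, Ly6e, had -0.14 (standard error 0.12).

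Bst2 had 58.8, 65.0 and 75.9 CPM in TCR alone against 85.1, 68.0 and 82.8 CPM in TCR+DMGV. The groups overlapped, and its log2 fold change was 0.24 (standard error 0.13; edgeR's unadjusted p = 0.107). Mx1 had the lowest value of all members tested, -0.36, on 0.404 to 0.784 CPM and with a standard error of 0.39. Ifi27l2a, at 29.6 FPKM, had 15.4 ± 3.81 and 15.4 ± 2.54 CPM (SD, n = 3 each).

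The 4 sensors of viral nucleic acid lay between -0.22 and 0.09 with no unadjusted p under 0.05. Ifih1, which encodes MDA5, had 16.7 ± 2.48 CPM in TCR alone against 17.7 ± 0.547 CPM in TCR+DMGV (SD, n = 3 each), with a fitted log2 fold change of 0.09. Zbp1, which senses left-handed double helices and can start necroptosis, had 0.03 (standard error 0.14). Of the 5 genes of ADP-ribosylation and ubiquitin, Ifi35 was the only one above 0, at 0.18 (standard error 0.12), and Dtx3l, an E3 ligase that works with PARP9, had -0.09 (standard error 0.09). Dtx3l and Parp9 overlap on opposite strands, and the counting is not stated to use strand.

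Of the transcription factors besides Irf7, Irf1, a main factor downstream of interferon-gamma, had 128 ± 16 CPM in TCR alone against 120 ± 7.28 CPM in TCR+DMGV (SD, n = 3 each). This gave a log2 fold change of -0.10 (standard error 0.11). Irf9, the DNA-binding part of the complex that type I interferons activate, had 31.8 ± 1.47 and 32.4 ± 0.895 CPM (SD, n = 3 each) and a log2 fold change of 0.03 (standard error 0.09).

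The GTPases held more of the counts than the antiviral genes. Their counts added up to 2462, 2540 and 2331 CPM in TCR alone against to 2310, 2207 and 2291 CPM in TCR+DMGV. The groups did not overlap, but TCR alone replicate 3 and TCR+DMGV replicate 1 were close, and the means were 2444 ± 106 and 2269 ± 55.0 CPM (SD, n = 3 each). The 30 antiviral genes added up to 1307 ± 31.2 and 1324 ± 14.6 CPM (SD, n = 3 each), a difference smaller than the SD of TCR alone. Sums are ruled by the genes with the most counts, Gbp2 and Igtp among the GTPases and Samhd1, Ly6e and Ly6a among the antiviral genes. Each of these genes on its own overlapped between the groups.

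**Figure D3:**
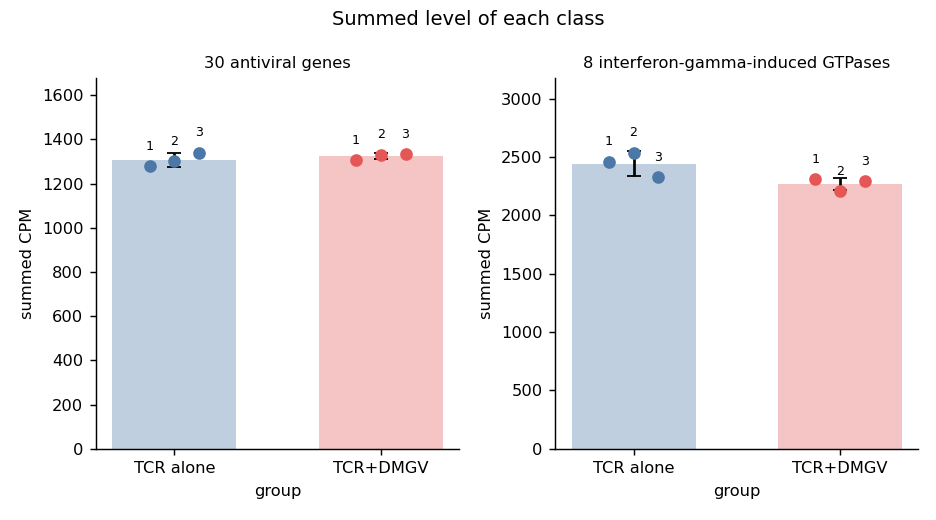
Summed CPM of the antiviral genes and of the interferon-gamma-induced GTPases. Points are samples with their replicate number, bars are means and lines the SD of 3 samples. The antiviral sums of both groups lie between 1279 and 1341 CPM, and the GTPase sums of TCR+DMGV (2207 to 2310) lie below those of TCR alone (2331 to 2540).

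Among the guanylate-binding proteins, which coat and break pathogen vacuoles and help inflammasomes to form, Gbp2 had 755, 883 and 930 CPM in TCR alone against 915, 738 and 768 CPM in TCR+DMGV. High and low samples occurred in both groups, and its log2 fold change was -0.08 (standard error 0.11). Gbp4 had 256, 228 and 192 CPM in TCR alone against 178, 201 and 194 CPM in TCR+DMGV. Its log2 fold change of -0.24 (standard error 0.12; edgeR's unadjusted p = 0.077) was the lowest of the family, and the groups overlapped through TCR alone replicate 3.

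Gbp3 and Gbp5 are described because their groups did not overlap, a choice made after their values were seen. Gbp5, which promotes NLRP3 inflammasome assembly, had 186.1, 174.2 and 179.3 CPM in TCR alone against 173.7, 158.9 and 154.7 CPM in TCR+DMGV. The highest TCR+DMGV value was just under the lowest TCR alone value, and the log2 fold change was -0.15 (standard error 0.08; edgeR's unadjusted p = 0.093). Gbp3 had 45.34, 43.40 and 41.05 CPM against 40.24, 37.46 and 39.75 CPM, again nearly touching. Its log2 fold change was -0.14 (standard error 0.09; edgeR's unadjusted p = 0.142). All samples of TCR+DMGV lay below all of TCR alone in 3.94% of all genes tested.

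The immunity-related GTPases control the membrane of the pathogen vacuole, with Irgm1 and Igtp as regulators and Iigp1 as an effector. Igtp had 556, 527 and 539 CPM in TCR alone against 554, 519 and 522 CPM in TCR+DMGV, nearly level, with a log2 fold change of -0.02 (standard error 0.07). In 11.8% of its 50-base words it is identical to Irgm2. Irgm1 had 290 ± 42.0 and 276 ± 23.3 CPM (SD, n = 3 each) and a log2 fold change of -0.07 (standard error 0.12). Without TCR alone replicate 2 that value was 0.02, the only case among the 13 alternatives run in which a GTPase was not below 0.

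Iigp1 varied most among the GTPases, and not by group. It had 264, 277 and 127 CPM in TCR alone against 117, 209 and 233 CPM in TCR+DMGV. The low samples were TCR alone replicate 3 and TCR+DMGV replicate 1, and the log2 fold change was -0.26 (standard error 0.34; edgeR's unadjusted p = 0.476).

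Those 2 libraries stood apart from the other 4 over all genes. On the first principal component of log2 CPM, which held 32.2% of the variance, they had scores of -42.1 and -42.9, and the others had 10.5 to 34.9. Both were the lowest samples for 7 of the 39 tested members (Iigp1, Irgm1, Gbp4, Ifit2, Parp14, Dtx3l and Trim30a), against 17.2% of all genes tested. Both were the highest for another 7 (Gbp2, Irf1, Ifit3, Oas2, Oasl1, Parp9 and Zbp1), against 9.29% of all genes. Jak2, a kinase of the interferon-gamma receptor, showed the pattern of Iigp1, with 249, 225 and 136 CPM in TCR alone against 136, 200 and 182 CPM in TCR+DMGV. What sets these libraries apart was not tested.

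Without both libraries, the median log2 fold change of the GTPases was -0.20 and that of the antiviral genes -0.04. No member had an adjusted p under 0.05 in that edgeR fit, which left 2 samples in each group. At an unadjusted p under 0.05 there were 4 members: Irf7 (0.69) and Ly6a (0.49) above 0, and Iigp1 (-0.29) and Gbp4 (-0.29) below. The share of all genes at that limit was not counted for this fit, so the 4 cannot be set against it. The libraries left out were those in which Iigp1 was low, and Ly6a was highest in TCR+DMGV replicate 2, which was kept. Ifit1 (0.37) and Usp18 (0.25) were not among the 4.

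**Figure D4:**
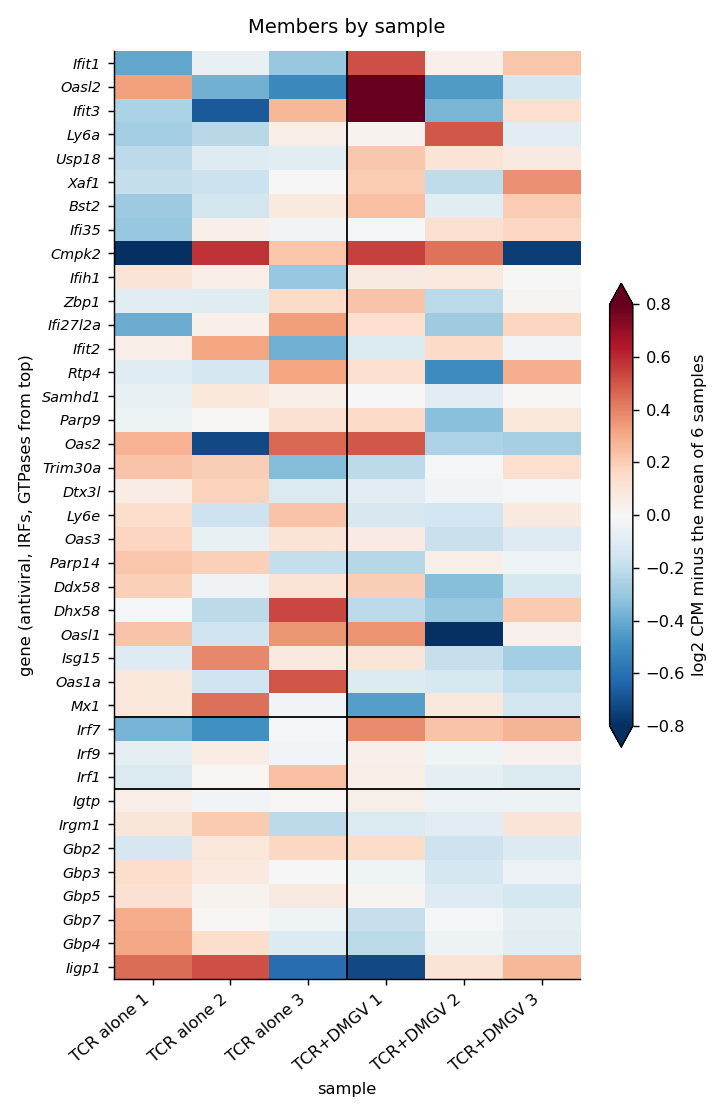
Log2 CPM of each tested member in each sample, as the deviation from its mean over the 6 samples, with colours ending at -0.8 and 0.8. Genes are sorted within each class by log2 fold change. The columns of TCR alone 3 and TCR+DMGV 1 are alike for Iigp1, and the deepest colours belong to genes of few counts such as Oasl2, Cmpk2 and Ifit3.

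The machinery that carries the interferon signal was also measured. Of 16 tested genes of receptors, kinases, STATs and inhibitors, 9 were above 0 and 7 below, and none had an unadjusted p under 0.05. The receptor genes Ifngr1 (35.0 ± 0.886 and 34.9 ± 2.10 CPM), Ifngr2 (23.8 ± 2.43 and 24.1 ± 2.57 CPM), Ifnar1 (72 ± 5.36 and 71.6 ± 2.65 CPM) and Ifnar2 (30.2 ± 3.74 and 32.2 ± 1.01 CPM) differed by less than the SD of TCR alone (SD, n = 3 each). For Ifnar2 the difference was larger than the SD of TCR+DMGV. Stat2 had a log2 fold change of -0.17 (standard error 0.12), Jak1 0.03 (standard error 0.07), Tyk2 0.01 (standard error 0.09) and Jak2 -0.24 (standard error 0.24).

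A further 74 interferon-stimulated genes outside the list were tested, 32 above 0 and 42 below, with a median log2 fold change of -0.03. None passed the adjusted threshold, and 4 had an unadjusted p under 0.05 in edgeR's test, against 3.19% of all genes tested. The 13 other GTPases among them had a median of -0.08, with 9 below 0. Of all genes tested, 49.4% were below 0.

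The count table of transcripts divides each gene's counts among its annotated transcripts, and for all 41 members these add up to the gene's counts. Of 118 member transcripts tested, 0 passed an adjusted p under 0.05 with edgeR (0% of all 38401 transcripts did), and 4 had an unadjusted p under 0.05, against 3.22% of all. The smallest of these belonged to Gbp3.

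Gbp3 had a similar total in each sample, but the transcript that received it changed. Gbp3-203 (ENSMUST00000106222.8) had 7, 1 and 5 counts in TCR alone against 1434, 108 and 1280 in TCR+DMGV. Gbp3-202 (ENSMUST00000106221.7) had 1671, 1751 and 1672 counts in TCR alone against 333, 1493 and 282 in TCR+DMGV. TCR+DMGV replicate 2 thus kept 92.6% of its counts on Gbp3-202, whereas replicates 1 and 3 had 18.6% and 17.9% there. Gbp3-203 had a log2 fold change of 7.64 (standard error 1.37; edgeR's unadjusted p = 0.0017, adjusted p = 0.448).

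The 2 transcripts share 2397 exonic bases (GRCm38), and 232 bases belong to Gbp3-203 alone and 285 to Gbp3-202 alone. They begin at 142560052 and 142560411 on chromosome 3, and the Gbp3 stretch printed above lies upstream of the first of these starts. The division between them was estimated by the authors' software from reads that mostly fit both.

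The estimated division between transcripts also changed in Gbp4, without regard to group. Gbp4-201 had 1420, 7549 and 5949 counts in TCR alone against 5006, 6454 and 1328 in TCR+DMGV, and Gbp4-202, annotated as a target of nonsense-mediated decay, had 7637, 1264 and 1353 against 1960, 1675 and 5820. Here TCR alone replicate 1 and TCR+DMGV replicate 3 were alike. Whether the Gbp3 change follows the treatment or the estimate was not tested, nor was the part of the estimate in the Gbp4 change.

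**Figure D5:**
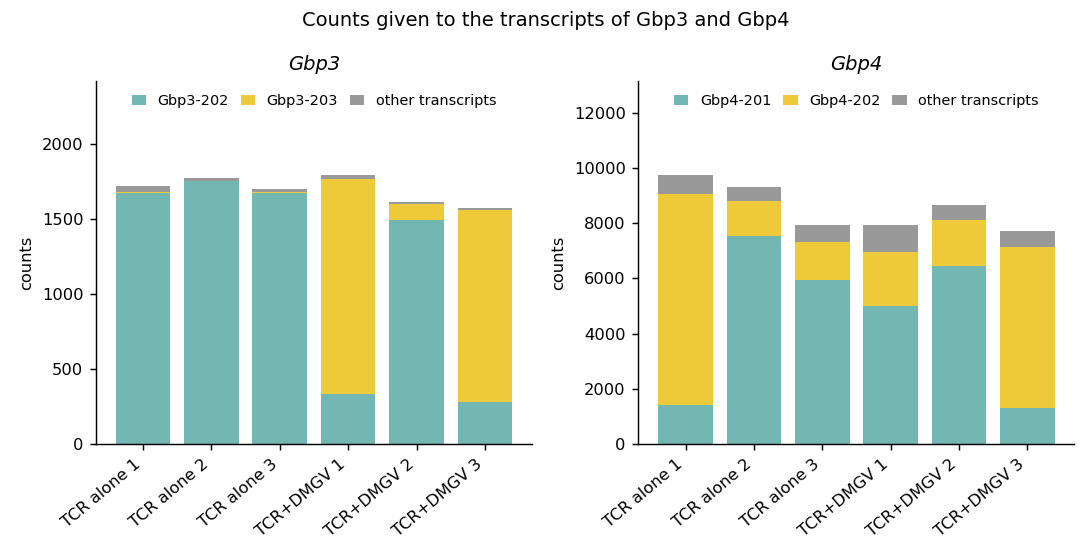
Counts given to the transcripts of Gbp3 and Gbp4 in each sample, stacked to the gene's total. Gbp3-203 holds most of the counts in TCR+DMGV 1 and 3 only, and Gbp4-202 holds most in TCR alone 1 and TCR+DMGV 3.

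Markers were read to see which cells the RNA came from. All 12 T cell markers were above 1 CPM in every sample and summed to 3447 to 3898 CPM in TCR alone against 3714 to 4069 CPM in TCR+DMGV. Markers of other cells that can make or answer interferon were low in both groups. The 10 monocyte and macrophage markers summed to 9.02 to 13.2 CPM and 9.31 to 11.5 CPM, the 8 dendritic cell markers to 7.23 to 9.91 CPM and 7.87 to 9.80 CPM, and the 8 NK cell markers to 7.16 to 11.1 CPM and 9.45 to 10.6 CPM. The 10 B cell markers summed to 8.48 to 11.7 CPM and 9.49 to 10.2 CPM, and all 8 neutrophil markers were at 0 counts. Between the groups, 1 B cell marker and 1 NK cell marker had an unadjusted p under 0.05 in edgeR's test. No marker of the other lists did, and 3.19% of all genes tested passed that limit. Of the defining markers, 1 of the B cell, 1 of the monocyte and macrophage and 3 of the dendritic cell list were at 0 in every sample. The part that such cells had in the levels of the members was not tested.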

How the data were processed

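RNA-seq of 6 samples was used, 3 per group. Reads had been cleaned with SOAPnuke, aligned with HISAT2 2.0.4 and quantified with StringTie by the authors. The processing notes name mm9, but the versioned Ensembl identifiers match GENCODE M21 (GRCm38) for 99.7% of genes, so coordinates here are those of GRCm38 and the authors' annotation remains unstated. The deposited counts, for genes and for transcripts, are whole numbers without normalization, and the authors' step from StringTie to counts and its use of strand are not given in the sources used here. The deposited FPKM values, scaled by the authors to gene length and sample total, were used for levels and for an alternative test. Transcript FPKM values were not used.

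Gene counts were tested with edgeR 4.0.16 (R 4.3.3; quasi-likelihood F test, two-sided, TMM, filterByExpr, no covariates), which kept 14786 genes, and p-values were adjusted by Benjamini-Hochberg and called under 0.05. Transcript counts were tested alike. Fits were tested on simulated data. Alternatives were DESeq2 1.42.0, size factors as in DESeq2, all genes with a count, limma 3.58.1 on log2(FPKM + 1) or log2(FPKM + 0.1), a replicate block, and samples left out. Principal components used log2 CPM with a prior count of 2. The share of 50-base words found in other genes was computed from the M21 transcripts. Promoter windows and their sequences are RefSeq's (GRCm38.p6). For 28 of 28 members a window shared a stretch with the first bases of an annotated transcript, which checks orientation and not the exact start. Members without a window were not searched. Intervals for single genes are standard errors, and the limit for a count of 0 covers counting error only.

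The members and lists were chosen with earlier results of these data known. Members named with values were those with an unadjusted p under 0.05, the 2 of highest mean FPKM in each role, and the 2 tested genes of largest positive and of largest negative log2 fold change among the antiviral genes and among the GTPases. Members that failed the filter were named, and of the signalling genes a set list was given, of which 1 gene is not reported here. Gbp3, Gbp5 and the transcripts described were chosen after their values were seen. Other steps used Python 3.11.15, pandas 2.3.3 and, for figures, matplotlib 3.10.9.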

Additional observations from a re-analysis of the deposited data

How the results depend on the processing

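With 3 samples per group, single genes of the size seen here, 0.26 or less among the GTPases, lay within about 2 standard errors for all 8. No member passed an adjusted p of 0.05 in any of the 13 alternatives run. The number of all genes past it was 2, and it was 14 with DESeq2, 1 with all genes that had a count, 0 on log2(FPKM + 1), 0 on log2(FPKM + 0.1), 0 with the replicate block, 12 without both libraries that stand apart, and 0 to 5 with 1 sample left out. Members at an unadjusted p under 0.05 numbered 3, and 1 on log2(FPKM + 0.1), 1 with the replicate block and 0 to 6 with 1 sample left out. The 0 came without TCR alone replicate 1 and without TCR+DMGV replicate 1, and the 6 without TCR alone replicate 3. The share of all genes at that limit was 3.19% in the main fit. It was not counted for the alternatives, so their numbers of members cannot be set against it.

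The median of the GTPases stayed between -0.20 and -0.11 in all alternatives, whereas that of the antiviral genes ran from -0.10 to 0.06 and was above 0 without TCR alone replicate 3 (0.02) and without TCR+DMGV replicate 2 (0.06). All 8 GTPases stayed below 0 except Irgm1 without TCR alone replicate 2 (0.018).

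Of 25 members named with values, 17 kept their sign in all alternatives and 8 did not. With the replicate block Ifit2 was at 0.0089 and Ifi27l2a at 0.013. Without both libraries that stand apart Oasl2 was at -0.31, Ifi27l2a at 0.13 and Ifih1 at -0.042. With 1 sample left out, Ifit2 ran from -0.18 to 0.16, Oasl2 from -0.16 to 0.84, Ifi27l2a from -0.19 to 0.19, Ifih1 from -0.026 to 0.15, Zbp1 from -0.090 to 0.13, Irf1 from -0.19 to 0.0093, Irf9 from -0.019 to 0.060 and Irgm1 from -0.18 to 0.018. The causes were not tested.

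Deviations of same-numbered samples from their group means correlated across genes at -0.15, 0.12 and -0.15 for numbers 1, 2 and 3. Only number 2 correlated best with its own. The highest value, 0.31, was that of TCR alone replicate 3 and TCR+DMGV replicate 1, the libraries that stand apart. These values therefore cannot decide whether same-numbered samples are paired. The count of member transcripts past the threshold was 0 with all transcripts that had a count and with the replicate block.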

Other observations

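Outside the 41 members, 4 other interferon-stimulated genes had an unadjusted p under 0.05 in edgeR's quasi-likelihood test, and they are named here after their values were seen. They were 4 of the 74 tested, and 3.19% of all genes tested passed the same limit. None passed the adjusted threshold (adjusted p = 0.999 for each). Trim25, the ubiquitin ligase that helps RIG-I to signal, had 110, 110 and 114 CPM in TCR alone and 79.3, 75.7 and 99.2 CPM in TCR+DMGV. Every TCR+DMGV sample lay below every TCR alone sample, and the log2 fold change was -0.40 (standard error 0.11; edgeR's unadjusted p = 0.0095).

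The other 3 were higher in TCR+DMGV. Cxcl9, a chemokine gene driven by interferon-gamma, had 1.90, 1.18 and 1.62 CPM in TCR alone and 2.38, 3.02 and 2.22 CPM in TCR+DMGV, without overlap (log2 fold change 0.70, standard error 0.27). Ifitm1, which blocks the entry of virus, had 0.105, 0.196 and 0.628 CPM against 1.26, 1.32 and 0.707 CPM, at a level of few counts (1.81, standard error 0.66). Trim21, an antibody receptor in the cytosol, had 14.2, 24.3 and 15.9 CPM against 25.7, 23.9 and 26.2 CPM, and its groups overlapped (0.48, standard error 0.20).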
